A study of Mus musculus with 8 samples.

Results

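The genes of the vascular endothelial growth factor (VEGF) family were examined in bulk RNA-Seq of cultured mouse cardiac endothelial cells (MCECs). The members were chosen by name: the ligand genes *Vegfa*, *Vegfb*, *Vegfc* and *Pgf* and the receptor genes *Flt1*, *Kdr* and *Flt4*. Of these 7 genes, 6 had a row in the deposited table of 8278 genes. *Vegfc* had no row, so no value can be given for it. The 2 groups were *Hdac3* KO MCECs, transduced with a lentivirus that carries the *Hdac3* sgRNA and Cas9, and EV MCECs, transduced with the empty vector as control. Each group had 4 libraries, called EV1 to EV4 and KO1 to KO4 by replicate number. The cells of both groups come from 1 established commercial line, and the sources used here do not say whether the KO cells were a clone or whether the 4 libraries came from separate cultures. The study describes its work in vitro, in general terms, as done with technical replicates. Equally generally, it states that its experiments were independently repeated and that its sample numbers are of biological samples. The p-values therefore measure the spread between these libraries, which may be technical.

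VEGF ligands are secreted dimers that bind receptor tyrosine kinases on endothelial cells. *Kdr* encodes VEGFR2, the main receptor for growth and permeability signals of VEGF-A. *Flt1* encodes VEGFR1, which binds VEGF-A, VEGF-B and placental growth factor and also exists as a soluble decoy. *Flt4* encodes VEGFR3, the receptor of VEGF-C and VEGF-D, best known from lymphatic endothelium.

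The table was made by the authors and lists only genes with their own adjusted p-value under 0.05, so a gene without a row may be unexpressed or may not have differed. Total reads per library, recovered from count, length and FPKM, were between 15775327 and 22255684. The targeted gene, *Hdac3*, had 1943 to 2147 normalized counts in the EV libraries and 1465 to 1558 in the *Hdac3* KO libraries, a log2 fold change of -0.45 ± 0.04 (SE, the standard error of the fit; edgeR adjusted p = 1.0e-13). Normalized counts are read counts divided by the relative library size. By western blot, the study reports the loss of HDAC3 protein in KO MCECs, which these RNA counts do not measure. Of the defining endothelial markers, *Cdh5* and *Tie1* had no row and *Pecam1* had at most 1.19 normalized counts in an EV library and 8.23 in a KO library. *Tek*, the angiopoietin receptor gene, had 57.0 to 84.4 in EV and 24.5 to 26.3 in KO libraries. Of 30 endothelial markers, 10 had a row, of which 9 were lower and 1, *Pecam1*, was higher, with a summed level of 230 to 234.6 FPKM in EV and 172.1 to 179.3 FPKM in KO libraries. Most of this sum was *Pdpn* and *Cd34*. The call of *Pecam1* was lost with DESeq2 (adjusted p = 0.0185), and it held in 5 of the 8 fits that left out 1 library. Of 11 fibroblast and mesenchymal markers, 7 had a row, of which 5 were lower and 2, *Fn1* and *Col1a1*, were higher, with a sum of 3124 to 3239 FPKM in EV and 2593 to 2688 FPKM in KO libraries. Of 8 smooth muscle and pericyte markers, 4 had a row, of which *Tagln*, *Acta2* and *Pdgfrb* were lower and *Des* was higher, with a sum of 29.7 to 35.9 FPKM in EV and 6.64 to 8.05 FPKM in KO libraries. Of 8 haematopoietic markers only *Cd68* had a row, with 5.36 to 5.89 FPKM in EV and 11.1 to 12.5 FPKM in KO libraries, and of 8 cardiomyocyte markers only *Nppb*, with at most 1.66 FPKM. The part of these markers in the results on VEGF genes was not tested. In bulk RNA, fewer cells of a type and less RNA per cell cannot be told apart.

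All 6 listed members passed an adjusted p-value of 0.01 in edgeR's quasi-likelihood test across the table, as did 96.7% of all its genes. *Vegfa* and *Pgf* were higher in *Hdac3* KO MCECs, and *Vegfb*, *Flt1*, *Kdr* and *Flt4* were lower. Of these calls, that of *Pgf*, at 2 to 14 raw reads, was lost with DESeq2 (adjusted p = 0.0214). The table is a selection on the same libraries, and 49.6% of all its genes were called lower and 47.1% higher. A call alone therefore does not set the members apart, and their size and level are described here gene by gene. The libraries of the 2 groups did not overlap for 5 of the 6 members, all but *Pgf*, against 91.1% of all genes in the table. With library totals in place of TMM scaling, the split over the table was 4120 lower and 2671 higher genes, against 4107 and 3895, and the median log2 fold change of all genes was -0.06 in place of 0.06. The direction of each of the 6 members was the same in both. Without TMM each of their log2 fold changes was lower. It was 1.07 in place of 1.19 for *Vegfa* and -0.38 in place of -0.26 for *Flt1*. The standard errors given here do not include this shift.

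**Figure D1:**
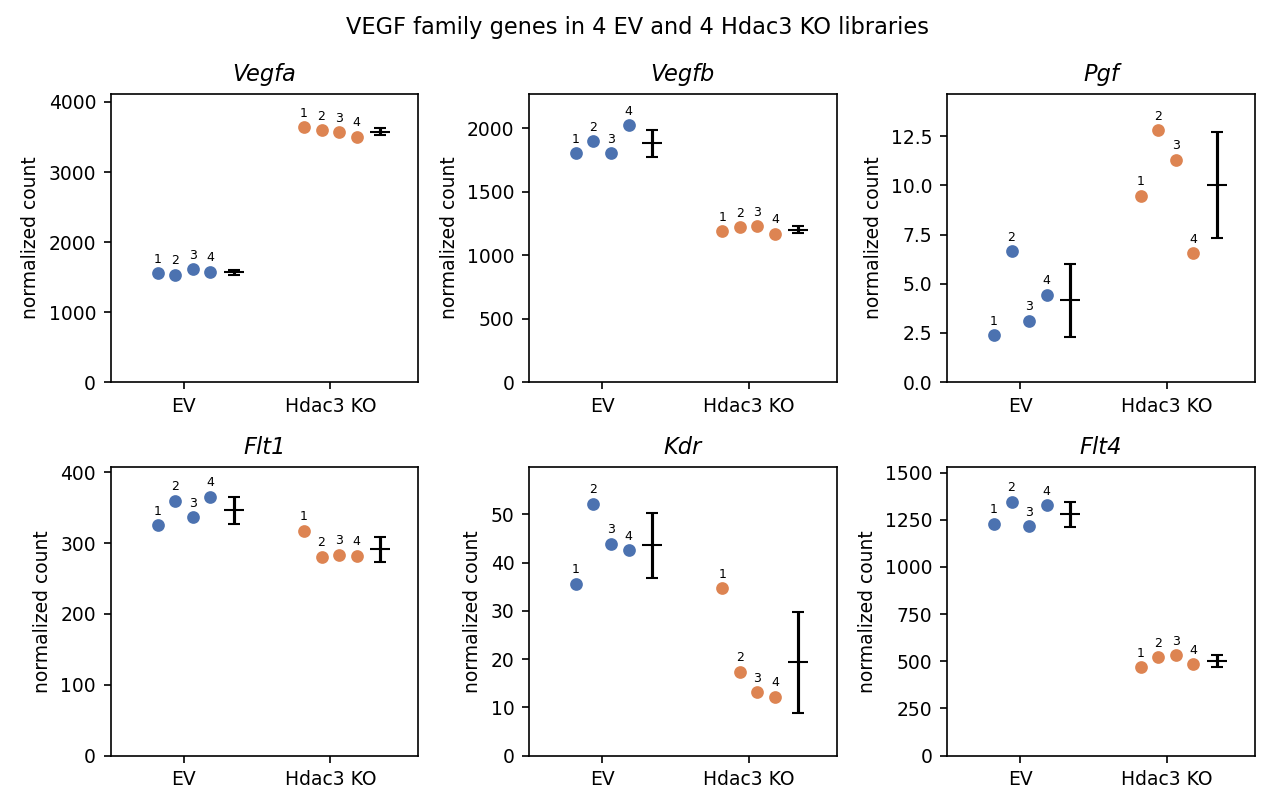
Normalized counts of the 6 listed VEGF family genes, with 1 point per library numbered by replicate and the mean ± SD of 4 libraries as a black bar; each vertical axis starts at 0. *Vegfa* lay at 3507 or more in every KO library and at 1612 or less in every EV library, while KO1 of *Kdr* lay just under the lowest EV library.

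*Vegfa* (ENSMUSG00000023951) is on chromosome 17 of mm10, minus strand, from 46016993 to 46032377, and *Vegfb* (ENSMUSG00000024962) is on chromosome 19, minus strand, from 6982473 to 6987651. Of the 3 ligand members with a row, these had nearly all reads, and they moved in opposite directions. The stretches of 250 bases before their annotated start sites are shown because these are the regulatory sequences next to the 2 starts. They come from the RefSeq annotation of GRCm38.p6, the assembly of mm10, and read 5′ to 3′ on the minus strand, for *Vegfa* at chr17:46032378-46032627 and for *Vegfb* at chr19:6987652-6987901. Capitals mark the letters GGGCGG, the GC box, on either strand.
*Vegfa*: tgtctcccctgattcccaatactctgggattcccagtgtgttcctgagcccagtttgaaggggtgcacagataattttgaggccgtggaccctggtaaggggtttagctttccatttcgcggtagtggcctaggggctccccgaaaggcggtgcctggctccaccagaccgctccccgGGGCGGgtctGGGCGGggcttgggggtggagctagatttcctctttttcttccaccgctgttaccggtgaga
*Vegfb*: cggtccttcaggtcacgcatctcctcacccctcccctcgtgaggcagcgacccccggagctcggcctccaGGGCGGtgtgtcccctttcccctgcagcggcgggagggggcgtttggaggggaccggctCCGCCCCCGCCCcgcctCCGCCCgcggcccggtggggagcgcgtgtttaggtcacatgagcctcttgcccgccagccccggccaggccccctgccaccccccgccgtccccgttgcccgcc

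The *Vegfa* stretch holds 2 matches to the GC box and the *Vegfb* stretch 4, of which 2 lie end to end. The motif occurs in 32.7% of the 32851 RefSeq stretches of this length and place. GC content was 59.2% before *Vegfa* and 76.4% before *Vegfb*, against a median of 52.4% over all of them. The letters ACGTG, a form of the core of the hypoxia response element, were in neither stretch and are in 16.6% of all. The other form, GCGTG, was not counted over all stretches. As printed, the *Vegfb* stretch holds it on both strands and the *Vegfa* stretch does not. The starts of the other 5 members, *Vegfc* included, had 2 or 3 matches to the GC box in the same stretch, leaving aside a second *Pgf* start with 0. A second annotated *Vegfa* start, at 46025163 inside the gene, has 1 match to ACGTG before it. Both strands were searched, and a match or its absence is a description of these letters alone. The counts are per gene and do not separate start sites.

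VEGF-A is the ligand that drives sprouting and permeability of endothelium. The normalized counts of *Vegfa* were 1552, 1534, 1612 and 1576 in EV1 to EV4. In KO1 to KO4 they were 3641, 3597, 3566 and 3507. Every KO library lay above every EV library, and within a group the libraries differed little, with a coefficient of variation of 2.15% in EV and 1.58% in KO. The means were 1569 ± 33.8 (SD, n = 4) and 3578 ± 56.4 (SD, n = 4), a log2 fold change of 1.19 ± 0.03 (SE; edgeR adjusted p = 2.0e-27) or 2.28-fold. A two-sided exact permutation test gave p = 0.0286, the smallest value that the 70 possible arrangements of 8 libraries allow, and the same p was obtained for *Vegfb*, *Flt1*, *Kdr* and *Flt4*. Of all genes in the table, 3.39% rose by more. The annotation gives 13 *Vegfa* transcripts, 8 of them coding, and the gene counts do not separate the splice forms.

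VEGF-B, a ligand of VEGFR1 known for its role in heart and other oxidative tissue, is encoded by the member with the highest level in EV MCECs among the 6 with a row. The normalized counts of *Vegfb* were 1800, 1896, 1801 and 2023 in EV1 to EV4, and 1188, 1221, 1227 and 1169 in KO1 to KO4. Every KO library was below every EV library. The fitted log2 change was -0.65 ± 0.04 (SE; edgeR adjusted p = 4.9e-17), a 1.57-fold lower level. Of all genes in the table, 16.5% fell by more. The study also lists *Vegfb* among growth factor genes with lower RNA in *Hdac3* KO MCECs. Among the growth factors it then measured by western blot, VEGF-B included, it reports a significant decrease of TGFβ3 only.

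Placental growth factor, a ligand of VEGFR1, was barely detected. *Pgf* (ENSMUSG00000004791, chromosome 12, 85166639 to 85177296, minus strand) had 2, 6, 3 and 5 raw reads in EV1 to EV4, and 9, 14, 12 and 7 in KO1 to KO4. EV1 and EV3 were at or under 3 reads, taken as the floor of detection. After normalization the groups overlapped, with 6.66 in EV2 and 6.56 in KO4 (two-sided exact permutation test, p = 0.0571). The fitted log2 change was 1.24 ± 0.43 (SE; edgeR adjusted p = 0.00733). This call was lost with DESeq2 (adjusted p = 0.0214), and it held in only 2 of the 8 fits that left out 1 library, those without EV2 and without KO4.

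VEGF-D, which binds VEGFR3, is listed under its older symbol *Figf* (ENSMUSG00000031380) and belongs to the wider list of ligand handling genes rather than to the 7 members. Its normalized counts were 157.9 to 186.6 in EV and 84.2 to 116.8 in KO libraries, without overlap. The fitted log2 change was -0.70 ± 0.11 (SE; edgeR adjusted p = 4.8e-07). With *Vegfc* unlisted, *Figf* is the one ligand gene of *Flt4* with a value here.

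Among the receptors, *Flt4* had the highest level. *Flt4* (ENSMUSG00000020357) is on chromosome 11, plus strand, from 49609263 to 49652739. Its normalized counts were 1228, 1346, 1216 and 1328 in EV1 to EV4, and 467, 521, 533 and 484 in KO1 to KO4. The lowest EV library had more than the highest KO library by a wide margin, with a coefficient of variation of 5.22% in EV and 6.14% in KO. The means were 1280 ± 66.8 and 501 ± 30.8 (SD, n = 4 per group). The fitted log2 change was -1.35 ± 0.05 (SE; edgeR adjusted p = 2.9e-23), a 2.55-fold lower level. Of all genes in the table, 4.49% fell by more.

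*Kdr* (ENSMUSG00000062960, chromosome 5, 75932827 to 75978458, minus strand), the VEGFR2 gene, had few reads in both groups. Raw reads were 30, 47, 42 and 48 in EV1 to EV4, and 33, 19, 14 and 13 in KO1 to KO4. Normalized counts were 35.6, 52.2, 43.9 and 42.6 in EV and 34.7, 17.4, 13.2 and 12.2 in KO. The groups did not overlap, but only by the gap between EV1 and KO1. The coefficient of variation was 54.1% in KO against 15.6% in EV. The fitted log2 change was -1.20 ± 0.24 (SE; edgeR adjusted p = 3.3e-05), or 2.29-fold lower. Without KO1 it was -1.60, and over all fits without 1 library it stayed between -1.60 and -1.03, past the threshold in all 8.

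*Flt1* (ENSMUSG00000029648, chromosome 5, 147561604 to 147726011, minus strand), the VEGFR1 gene, changed least. Its normalized counts were 325, 360, 336 and 365 in EV1 to EV4, and 318, 281, 283 and 282 in KO1 to KO4. All 4 KO libraries were below all 4 EV libraries, and KO1 again lay nearest to EV. The fitted log2 change was -0.26 ± 0.07 (SE; edgeR adjusted p = 7.8e-04), which is a level lower by 1.2-fold. Of all genes in the table, 72.7% changed by more in either direction. The annotation has 2 coding *Flt1* transcripts, and the gene count does not separate the membrane from the soluble receptor. KO1 was the library apart from the rest of its group in 1.04% of the 7187 genes whose mean normalized count was 100 or more, within the range of 0.835% to 1.84% over the 8 libraries. None of the exonic bases of the 6 listed members is shared with another annotated gene.

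**Figure D2:**
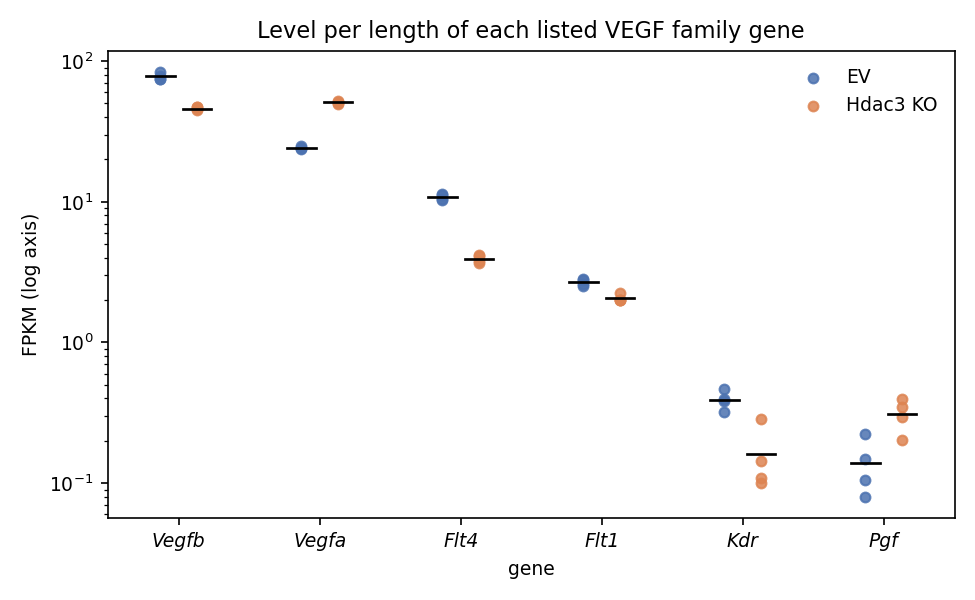
FPKM of each listed VEGF family gene on a log axis, with 1 point per library (blue EV, orange *Hdac3* KO, 4 libraries each) and a black line at the group mean. *Vegfb* was above *Vegfa* in EV and below it in KO, and *Kdr* and *Pgf* lay under 0.5 FPKM in every library.

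Levels of different genes were compared as FPKM, which divides the read count by gene length and library total. In EV MCECs the order was *Vegfb* (78.1 ± 4.12 FPKM), *Vegfa* (24.2 ± 0.558), *Flt4* (10.9 ± 0.529), *Flt1* (2.68 ± 0.137), *Kdr* (0.391 ± 0.0601) and *Pgf* (0.140 ± 0.0627; SD, n = 4 throughout). No 2 neighbours in this order overlapped over the 4 libraries. In *Hdac3* KO MCECs the order was *Vegfa* (50.9 ± 0.892 FPKM), *Vegfb* (46.0 ± 1.11), *Flt4* (3.93 ± 0.243), *Flt1* (2.07 ± 0.129), *Pgf* (0.311 ± 0.0837) and *Kdr* (0.160 ± 0.087). There the ranges of *Pgf* and *Kdr* overlapped, so these 2 cannot be ordered. In both groups the VEGFR3 gene was the most abundant receptor transcript and the VEGFR2 gene the least abundant one.

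The exchange of places between *Vegfa* and *Vegfb* held in every library. The ratio of *Vegfa* to *Vegfb* FPKM was 0.320, 0.300, 0.332 and 0.289 in EV1 to EV4. In KO1 to KO4 it was 1.14, 1.09, 1.08 and 1.11. Of the summed FPKM of *Vegfa*, *Vegfb* and *Pgf*, *Vegfa* held 23.7% ± 1.13 in EV and 52.3% ± 0.600 in KO (SD, n = 4). *Vegfb* held 76.2% ± 1.1 and 47.3% ± 0.555. *Pgf* held less than 0.5% in every library. The summed ligand FPKM itself was 102 ± 4.03 in EV and 97.2 ± 1.77 in KO, and this order depends on the scaling: divided by the TMM factors, the sums were 98.3 ± 4.18 and 101.2 ± 1.66.

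**Figure D3:**
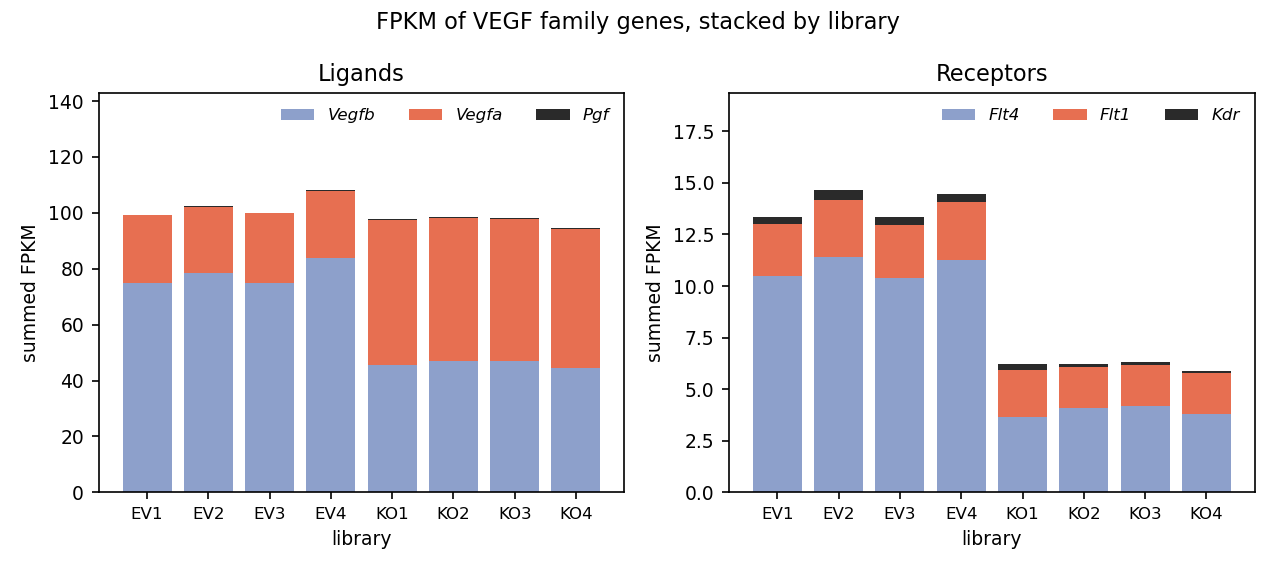
FPKM of the listed ligand genes (left) and receptor genes (right) stacked for each of the 8 libraries, with bars that start at 0. The ligand sums lay between 94.5 and 108.1 FPKM with a larger *Vegfa* part in KO, while the receptor sums were at most 6.30 FPKM in KO and at least 13.3 FPKM in EV.

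The receptor sum was lower in KO under both scalings. It was 13.3, 14.7, 13.4 and 14.5 FPKM in EV1 to EV4 and 6.22, 6.23, 6.30 and 5.89 FPKM in KO1 to KO4. Most of the difference was *Flt4*, whose part of the sum was 78.0% ± 0.473 in EV and 63.8% ± 3.31 in KO (SD, n = 4). The part of *Flt1* was 19.2% ± 0.325 in EV and 33.6% ± 2.07 in KO. The ratio of *Flt4* to *Flt1* FPKM was 4.07 ± 0.0878 in EV and 1.91 ± 0.207 in KO, without overlap. The ratio of *Flt1* to *Kdr* FPKM was 7.85, 5.92, 6.59 and 7.38 in EV1 to EV4, and 7.86, 13.9, 18.5 and 19.9 in KO1 to KO4. KO1 had nearly the ratio of EV1, and the low read number of *Kdr* limits this ratio. These sums and ratios are descriptions and were not tested.

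The genes whose products bind, process or switch off VEGF ligands and receptors were listed next. Neuropilins are co-receptors, *Nrp1* for VEGF-A with VEGFR2 and *Nrp2* for VEGF-C with VEGFR3. *Nrp1* (ENSMUSG00000025810) had 1379 to 1444 normalized counts in EV and 639 to 735 in KO libraries, a log2 fold change of -1.05 ± 0.04 (SE; edgeR adjusted p = 1.0e-21). *Nrp2* (ENSMUSG00000025969) had 6118 ± 268 normalized counts in EV and 3676 ± 119 in KO (SD, n = 4 per group), with a log2 fold change of -0.73 ± 0.03 (SE; edgeR adjusted p = 2.0e-21). Both neuropilin genes were lower in all 4 KO libraries than in any EV library. At 48.4 FPKM in EV and 26.8 FPKM in KO, *Nrp2* had a higher level per length than any of the 3 receptor genes.

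*Adamts3*, the protease gene for VEGF-C maturation, fell from 271 ± 30.0 to 135 ± 14.2 normalized counts (log2 fold change -1.01 ± 0.09). *Ptprb*, which encodes the endothelial phosphatase VE-PTP, fell from 801 ± 49.0 to 383 ± 20.8 (log2 fold change -1.06 ± 0.06). Their adjusted p-values from edgeR were 7.6e-12 and 1.8e-18. *Ccbe1*, the cofactor of *Adamts3*, had no row. Of the 24 genes for co-receptors and ligand handling, 21 had a row, of which 14 were lower, 6 higher and 1 was not called. Their median log2 fold change was -0.33, against 0.06 over the table. The largest falls by the naming rule also included the semaphorin genes *Sema3c* (log2 fold change -1.08 ± 0.03) and *Sema3a* (-0.91 ± 0.04), whose products are neuropilin ligands.

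**Figure D4:**
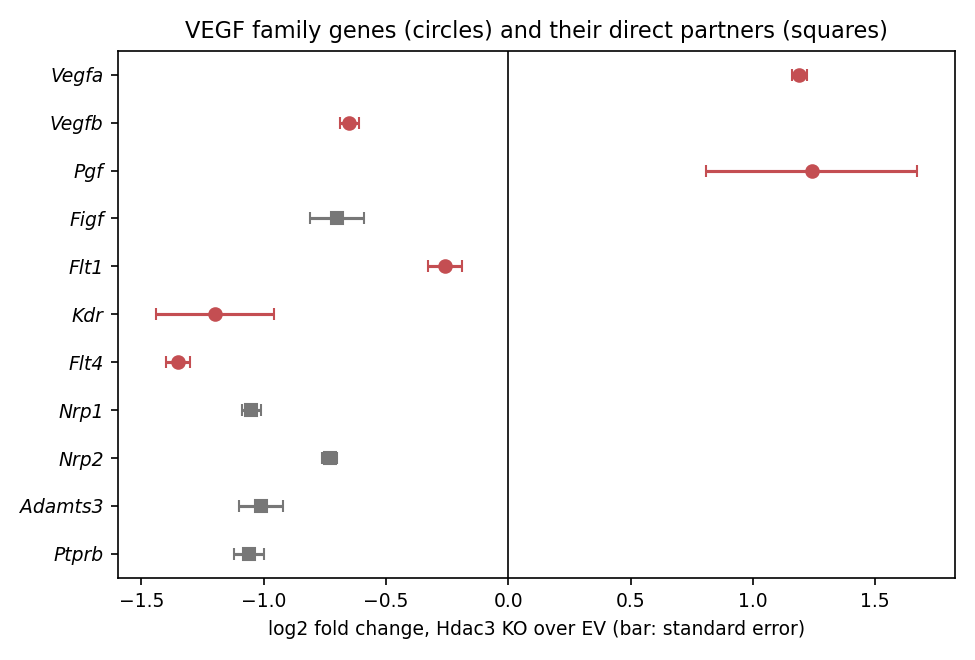
Log2 fold change of *Hdac3* KO over EV MCECs with its standard error for the 6 listed members (circles) and 5 direct partners (squares). *Vegfa* at 1.19 and *Pgf* at 1.24 lie above 0, all 3 receptors and both neuropilins lie below 0, and the bar of *Pgf* is the widest with a standard error of 0.43.

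Genes of the signal chain inside the cell moved in both directions. Of 59 genes for VEGF receptor signalling, 37 had a row, of which 17 were lower, 18 higher and 2 were not called, with a median log2 fold change of 0.05. Without TMM scaling the split was 17 lower and 13 higher. The largest changes by the naming rule were those of *Vav2* (log2 fold change -0.99 ± 0.03), *Fyn* (0.83 ± 0.05), *Vav3* (-0.61 ± 0.10), *Iqgap1* (0.60 ± 0.02) and *Pik3r2* (-0.60 ± 0.03). *Fyn* encodes a Src family kinase. *Plcg1*, the phospholipase that binds activated VEGFR2, fell from 1905 ± 32.8 to 1530 ± 72.1 normalized counts (log2 fold change -0.32 ± 0.04, edgeR adjusted p = 5.6e-10). It was chosen after its values were seen, and exons of genes on the other strand overlap 6.68% of its exonic bases. *Nos3*, the endothelial nitric oxide synthase gene downstream of VEGFR2, had no row.

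Genes known to respond to VEGF in endothelium were evenly split. Of 39 such genes, 22 had a row, with 11 lower and 11 higher in *Hdac3* KO MCECs and a median log2 fold change of -0.02. The immediate early gene *Egr1* was lower, with 1211 ± 38.8 normalized counts in EV and 382 ± 5.83 in KO (SD, n = 4 per group) and a log2 fold change of -1.66 ± 0.05 (SE; edgeR adjusted p = 2.2e-26). The gelatinase gene *Mmp2* (log2 fold change -1.45 ± 0.03) and the adhesion gene *Icam1* (-1.37 ± 0.15) were also lower. Exons of an opposite-strand gene overlap 11.7% of the exonic bases of *Icam1*. The cyclooxygenase gene *Ptgs2* (1.41 ± 0.06) and the MAP kinase phosphatase gene *Dusp4* (1.13 ± 0.03) were higher. *Dll4*, *Esm1* and *Angpt2*, which mark endothelial tip cells under VEGF, had no row.

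Hypoxia-inducible factors are the best known activators of *Vegfa* transcription. Of 26 genes of this control, 16 had a row, of which 7 were lower, 8 higher and 1 was not called, with a median log2 fold change of 0.07. With library totals in place of TMM scaling, 8 were lower and 5 higher. Of the factor genes, *Epas1* fell from 614 ± 26.9 to 314 ± 18.8 normalized counts (log2 fold change -0.96 ± 0.06) and *Arnt2* from 3240 ± 89.6 to 1523 ± 69.8 (-1.09 ± 0.03). *Hif1a*, named outside the rule, was lower by a small step, from 3858 ± 199 to 3339 ± 44.3 (log2 fold change -0.21 ± 0.03, edgeR adjusted p = 2.5e-07), with 8.11% of its exonic bases shared with other annotated genes. The glycolysis genes *Pgk1* (0.74 ± 0.03) and *Ldha* (0.60 ± 0.03) and the ubiquitin ligase gene *Siah2* (0.49 ± 0.06) were higher. Named outside the rule, the factor gene *Arnt* was also called higher (log2 fold change 0.11 ± 0.03), by about as much as the gap between the table's medians under the 2 scalings. The hypoxia-induced genes *Pdk1* (-0.40 ± 0.08), *Ndrg1* (-0.31 ± 0.04) and *Bnip3* (-0.28 ± 0.07), also outside the rule, were called lower. In the same list *P4ha2* was called higher and *P4ha1* was not called.

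Among receptors and ligands of related families, those with a row were called lower more often than higher. Of 26 genes for PDGF and other angiogenic ligands and receptors, 16 had a row, with 12 lower and 4 higher (*Pdgfb*, *Kitl*, *Csf1* and *Angptl4*) and a median log2 fold change of -0.98. *Pdgfb* was higher by only 0.12 ± 0.04 (SE; edgeR adjusted p = 0.00769). Without TMM scaling 3 genes of the list were higher. *Pdgfrb* fell from 579 ± 36.1 to 119 ± 17.1 normalized counts (log2 fold change -2.29 ± 0.08, edgeR adjusted p = 1.5e-23). *Fgfr2* (-1.55 ± 0.06), *Pdgfc* (-1.44 ± 0.11), *Pdgfra* (-1.42 ± 0.10) and *Pdgfd* (-1.30 ± 0.09) were the other genes named by the rule. Other annotated genes share 6.5% of the exonic bases of *Pdgfra*, 3.04% of those of *Fgfr2* and 2.89% of those of *Pdgfc*. *Pdgfra* is also in the fibroblast and *Pdgfrb* in the pericyte marker list. *Tek*, named as an endothelial marker, fell too (log2 fold change -1.41 ± 0.18, edgeR adjusted p = 1.1e-08). *Angptl4*, named after its values were seen, rose from a mean of 4.79 to 29.0 normalized counts (log2 fold change 2.58 ± 0.33, edgeR adjusted p = 1.2e-08). The counts of each list stand beside 49.6% lower and 47.1% higher calls over the table, and no list was tested against the others.

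**Figure D5:**
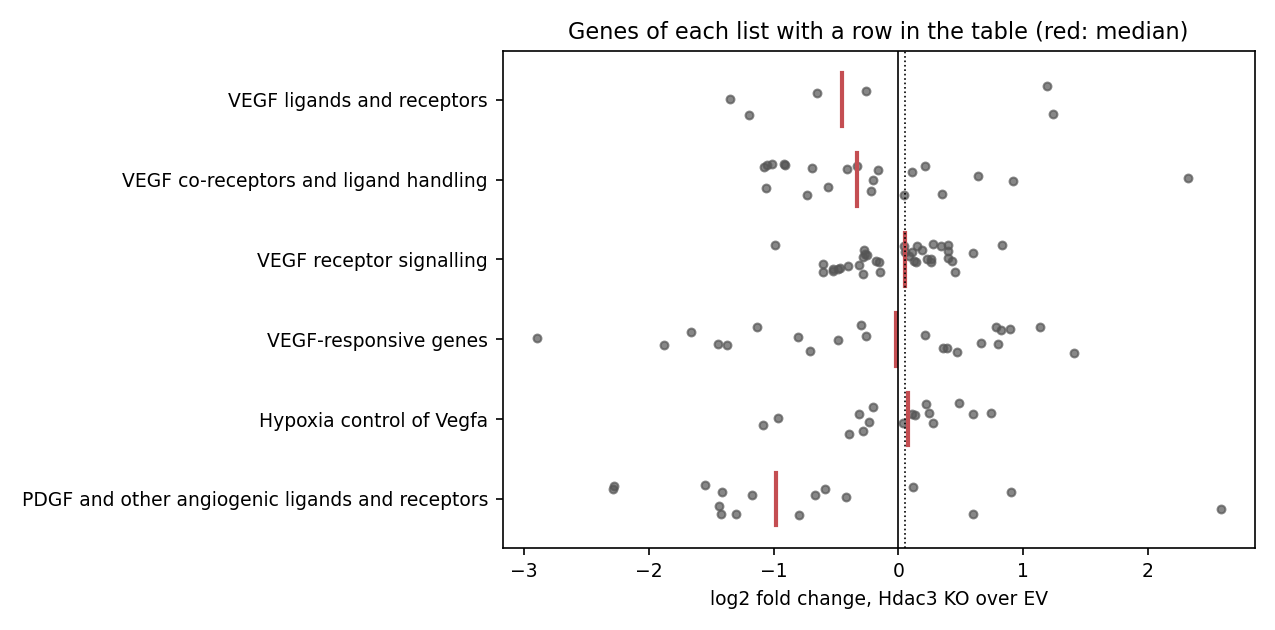
Log2 fold change of every gene with a row in each list (points spread vertically for view), with the list's median in red, 0 as a solid line and the median of all 8278 genes, 0.06, as a dotted line. The PDGF and other angiogenic list has the lowest median of those drawn, -0.98, and the receptor signalling list lies near the table's median at 0.05.

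The genes most like each member were found by the root mean square difference of centred log2(normalized count + 1) over the 8 libraries, among genes with a mean of at least 100 in the higher group. For *Vegfa* they were *Akr1b3*, which encodes aldose reductase (difference 0.028), and the serine synthesis gene *Psat1* (0.039). For *Vegfb* they were *Dbnl* (0.033) and the lysosomal fucosidase gene *Fuca1* (0.034). For *Flt1* they were *Zfp46* (0.034) and *Fanca* (0.038), and for *Flt4* *Smtnl2* (0.051) and *Cyp39a1* (0.062). The genes nearest to *Kdr*, *Trim21* (0.249) and *Uba7* (0.280), and to *Pgf*, *Apobr* (0.320) and *Cd74* (0.323), were much less close. Opposite-strand genes share 14.4% of the exonic bases of *Apobr* and 10.5% of those of *Fanca*, and a same-strand gene 3.48% of those of *Uba7*. Of these 12 genes, 10 were also found with a pseudocount of 0.1 and 8 with one of 10. The measure follows the size of the group difference and says nothing of shared control.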

How the data were processed

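Bulk RNA-Seq of 4 *Hdac3* KO and 4 EV MCEC libraries was analysed, with groups and replicate numbers from the sample titles. The authors aligned reads to mm10 with tophat2 and bowtie2 and deposited raw read counts and FPKM values per gene. The submitters' processing notes name CASAVA and DESeq 1.6.3. The methods also name DESeq2 and the cufflinks suite, both for differential expression, and the lumi package, for the count matrix. Which program counted the reads, with which annotation and with what use of strand, is not given in the sources used here. The table also holds the authors' group means, fold changes and p-values. Of these, the adjusted p-values were used only to see that all listed genes lie under 0.05. Separate tables of higher and lower genes were not used here either.

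Library totals were recovered as the median over genes with at least 20 reads of count, length and FPKM combined. Counts were scaled with TMM factors on these totals and tested with edgeR 4.0.16 (R 4.3.3, limma 3.58.1) by the quasi-likelihood method, without a filter. P-values were adjusted after Benjamini and Hochberg over the 8278 genes, with a cut-off of 0.01. Called means past that cut-off, and lower or higher refers to *Hdac3* KO against EV. A fold change with its standard error comes from this fit. Exact permutation tests (two-sided) on normalized counts were run for each named gene. Alternatives were DESeq2 1.42.0, its size factors, library totals without TMM, a filter of 10 counts in 4 libraries, a replicate block, adjustment over 30000 genes, a cut-off of 0.05, pseudocounts of 0.1 and 10, FPKM divided by TMM factors, and leaving out each library. Scaling of the ligand and receptor sums was chosen after seeing the data. Both fits were also run on simulated data with 200 changed genes. Their behaviour in a table where most genes are called, here 96.7%, was not tested.

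The members and gene lists were chosen with earlier results of these data known. Named genes are the members, the 2 genes most like each, direct partners of the members, defining endothelial markers, *Hdac3*, and up to 5 genes per list with the largest change among those called, no overlap of the groups and a mean normalized count of 100 or more on the higher side. Shared exonic bases were counted in GENCODE gene models of mm10. Plots used matplotlib 3.10.9 (Python 3.11.15).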

Additional observations from a re-analysis of the deposited data

Results flagged for a closer look

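Of 102 groups of 4 libraries, taken from 51 named genes, 8 held a library far from the other 3 by the ratio of its gap to the group's range, where chance alone gives about 5.1. Among the members, 1 of 12 groups did. For *Flt1* this was KO1, at 317.7 normalized counts where the rest of its group lay at 280.8 to 283.4, and without it the log2 fold change was -0.30 in place of -0.26. The other 7 belong to genes outside the chosen members. EV2 stood apart in *Figf* (186.6 against 157.9 to 161.4) and in *Nrp2* (6518 against 5959 to 6033). KO2 stood apart in *Nrp2* as well (3854 against 3614 to 3621). EV1 stood apart in *Hif1a* (4155 against 3728 to 3776) and in *Pik3r2* (2851 against 3067 to 3101). KO4 stood apart in *Ptgs2* (900.1 against 818.2 to 822.8) and EV4 in *Fuca1* (1011 against 936.1 to 937.3). Each of these genes stayed past the cut-off in edgeR without that library, with an adjusted p of at most 3.6e-04, that of *Flt1*.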

How the results depend on the processing

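Of 391 recomputed values, 10 lost their side of the threshold and 18 moved, by 1 SD between libraries or more for a level and by over 1.5 times for a count. Of the 6 members, none turned its direction of change, but the median of all genes without TMM and the order of EV and KO in the summed ligand FPKM did so. *Vegfa*, *Vegfb*, *Flt1*, *Kdr* and *Flt4* kept their direction and their call in every alternative in which they were tested. The log2 fold change of *Pgf* was 1.28 with DESeq2, 1.13 with library totals without TMM and 1.24 with adjustment over 30000 genes, without a call in each of these (adjusted p 0.0214, 0.0165 and 0.0266), and it ranged from 1.08 to 1.53 with 1 library left out. The low-count filter removed it. In these alternatives, under that filter and with a replicate block, 1 member was higher in place of 2, and with 1 library left out the number was 1 to 2. In that block fit *Pgf* was at 1.22 without a call (edgeR adjusted p = 0.0105), and 4106 of all genes were lower and 3866 higher. Same-numbered libraries did not deviate together, with correlations of -0.093 to 0.10 across 7533 genes. The correlation was highest with the own number for 1 of 4 EV and 1 of 4 KO libraries. Whether same-numbered libraries shared a culture or a preparation is not stated, and these correlations cannot decide it. With library totals without TMM, 5 hypoxia control genes were higher in place of 8, and 8 were lower in place of 7. Divided by TMM factors, the mean FPKM was 23.2 in EV and 53.0 in KO for *Vegfa* and 47.9 in KO for *Vegfb*. The ligand sum was 98.3 in EV and 101.2 in KO, and the summed receptor FPKM in KO was 6.42 under that scaling. The cause of these shifts was not tested. At 2 to 14 reads for *Pgf* and 13 to 48 for *Kdr*, depth limits both genes.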

Other observations

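The listed genes within 1 Mb of each member were counted after the values had been seen. Near *Kdr* lie *Kit* and *Pdgfra*, receptor tyrosine kinase genes of a related family, on chromosome 5. *Kit* had 25.1 to 45.5 normalized counts in EV and 6.40 to 8.44 in KO libraries, and *Pdgfra* had 229 to 301 and 83.8 to 112. Their log2 fold changes were -2.28 (standard error 0.29, adjusted p = 7.4e-09) and -1.42 (standard error 0.10, adjusted p = 7.6e-15) in edgeR, beside -1.20 for *Kdr*. Exons of other annotated genes share 6.5% of the exonic bases of *Pdgfra*. Of the 8 listed genes within 1 Mb of *Kdr*, 3 were lower, 4 were higher and 1 was not called. Of the 27 near *Vegfa*, 11 were lower and 15 higher, and of the 34 near *Vegfb*, 17 and 14. Of the 17 near *Pgf*, 12 were lower and 5 higher. The call of *Pgf* itself as higher was lost with DESeq2 (adjusted p = 0.0214). Of the 9 near *Flt1*, 5 were lower and 4 higher, and of the 22 near *Flt4*, 12 and 8. Over the whole table, 49.6% of genes were lower and 47.1% higher.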
